A study of Saccharomyces cerevisiae with 21 samples.

Results

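The nuclear genome of budding yeast encodes most subunits of the respiratory chain and of ATP synthase, and 38 of these genes, out of 6600 counted features, were followed here through loss of glucose. They were taken by locus name from a list of subunit genes: 4 genes of succinate dehydrogenase (SDH), 3 of the single-subunit NADH dehydrogenases, 9 of complex III, 2 of cytochrome c, 9 of cytochrome oxidase and 11 of ATP synthase. All 38 had a feature in the count files, and all 38 passed the filter on low counts in both fits. The study asked how poly(A) RNA differs, with and without glucose, between strains whose Nab2 is wild type or mutant; Nab2 binds the poly(A) tails of RNA in the nucleus. All strains were BY4742 (MAT alpha his3Δ1 leu2Δ0 lys2Δ0 ura3Δ0) with NAB2 tagged at its own locus, so the wild type also carried a tag. The IDR mutant was NAB2-ΔQQQP-ΔRGG(Δ104-263)-SV40NLS-yEGFP-HISMX, an allele without residues 104 to 263 that has the nuclear import signal of SV40 added. The interface mutant was NAB2-F450A-GFP-HISMX, and the wild type was NAB2-yEGFP-HISMX. Starved cells had been washed 3 times and kept for 24 h in synthetic complete medium without glucose, and unstressed cells were in mid-log growth with 2% glucose. Whole-cell libraries covered both conditions (n = 2 in each of 6 groups), and libraries of a nuclear fraction covered starved cells only (n = 3 in each of 3 groups, of which 7 libraries were deep enough to use). The labels do not say whether replicates were separate cultures, so p-values measure the spread between these samples, which may be technical.

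In yeast mitochondria, electrons from NADH and succinate enter a pool of ubiquinone, pass through complex III to cytochrome c and reach oxygen at cytochrome oxidase, and the proton gradient formed on the way drives ATP synthase. Yeast has no proton-pumping complex I; NDI1 encodes the NADH dehydrogenase that faces the matrix, and NDE1 and NDE2 those that face the intermembrane space. On glucose, yeast ferments and represses much of this machinery, and the Hap2, Hap3, Hap4 and Hap5 complex, of which Hap4 is the regulated activator subunit, turns it on when glucose is gone. Subunit V of cytochrome oxidase and cytochrome c each exist as a pair of isoforms. COX5A and CYC1 are known for higher expression with oxygen and heme, and COX5B and CYC7 for higher expression when oxygen is low.

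The sequence upstream of the genes was read from the R64 reference genome, as the 250 bases that end 100 bases before the annotated start of each of the 38. CCAAT, the letters bound by the Hap complex, stood on one strand or the other in 33 of the 38 windows (86.8%) and in 2265 of 6001 windows of all annotated genes (37.7%). AGGGG, the stress element bound by Msn2 and Msn4, stood in 15 (39.5%) of the members' windows and in 20.1% of all windows. ATTGTT, the core of the site of the repressor Rox1, stood in 8 (21.1%) of the members' windows and in 27.8% of all. ATTGG, which is CCAAT on the other strand, and ATTGTT share their first letters but cannot start at the same base. CYC1, CYC7, CYT1, COX4 and NDE2 had no CCAAT in their windows. The COX4 window (chrVII:150272-150521) lies inside the counted COX4 feature (chrVII:149704-150525, − strand), so the sequence upstream of that feature was not read. The windows of both genes of the COX5A and COX5B pair, of CYC7, of NDE2 and of QCR8 are printed 5′ to 3′ on the strand of the gene, because the isoform results turn on the first 3, and NDE2 had the largest starvation change in both mutants and QCR8 the highest starved level. Capitals mark CCAAT or ATTGG, and AGGGG or CCCCT. They lie at chrXIV:531375-531624 (COX5A, + strand), chrIX:154872-155121 (COX5B, + strand), chrV:80078-80327 (CYC7, − strand), chrIV:302861-303110 (NDE2, + strand) and chrX:106084-106333 (QCR8, + strand).
COX5A: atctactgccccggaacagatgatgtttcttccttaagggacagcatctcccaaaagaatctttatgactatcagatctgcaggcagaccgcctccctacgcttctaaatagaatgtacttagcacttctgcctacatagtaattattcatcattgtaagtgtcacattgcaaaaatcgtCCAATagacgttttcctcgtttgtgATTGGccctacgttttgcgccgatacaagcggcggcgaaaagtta
COX5B: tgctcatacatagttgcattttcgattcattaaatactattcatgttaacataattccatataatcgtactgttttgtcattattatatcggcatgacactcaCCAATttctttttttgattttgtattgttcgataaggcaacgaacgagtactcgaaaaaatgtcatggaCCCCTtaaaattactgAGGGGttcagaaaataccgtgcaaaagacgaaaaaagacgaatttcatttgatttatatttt
CYC7: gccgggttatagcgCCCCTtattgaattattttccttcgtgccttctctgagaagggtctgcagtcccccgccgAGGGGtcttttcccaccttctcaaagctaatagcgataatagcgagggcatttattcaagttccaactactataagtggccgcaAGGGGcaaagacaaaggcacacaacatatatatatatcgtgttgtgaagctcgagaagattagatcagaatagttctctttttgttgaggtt
NDE2: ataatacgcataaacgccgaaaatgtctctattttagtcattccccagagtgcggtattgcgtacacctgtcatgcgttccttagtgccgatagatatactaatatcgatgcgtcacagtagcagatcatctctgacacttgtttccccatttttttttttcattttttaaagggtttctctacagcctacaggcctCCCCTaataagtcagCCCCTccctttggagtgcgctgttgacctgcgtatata
QCR8: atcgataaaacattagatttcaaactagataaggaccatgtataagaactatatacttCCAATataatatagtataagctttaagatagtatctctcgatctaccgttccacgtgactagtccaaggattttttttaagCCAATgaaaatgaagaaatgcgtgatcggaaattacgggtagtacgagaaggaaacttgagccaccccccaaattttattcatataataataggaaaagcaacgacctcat
COX5A and QCR8 each held 2 CCAAT boxes and no AGGGG. COX5B held 1 CCAAT box with 2 AGGGG elements, and also 1 ATTGTT, which is not in capitals. CYC7 and NDE2 held only AGGGG, 3 and 2 copies. No printed window but that of COX5B held ATTGTT. These are matches of letters and no measure of binding.

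Depth in yeast genes was 4815254 to 14069868 counts per whole-cell library, and 6353585 to 23138938 counts per nuclear library used. Nuclear wild type replicate 3 (1079 counts) and nuclear interface mutant replicate 3 (3981 counts) were too shallow and were left out. The 38 genes took 0.766 to 0.907% of counts in starved whole cells and 0.397 to 0.482% in unstressed whole cells, so their share was higher in every starved library. Poly(A) counts give each gene relative to all RNA counted, and in bulk samples fewer cells with an RNA and less of it per cell cannot be told apart. Levels are given as CPM per kb, which is the count scaled to library size (CPM, with factors from the trimmed mean of M values, TMM) and divided by the length of the counted feature in kb. NAB2 itself, the gene that differs between the strains, had 150.5 and 145 TMM-scaled CPM in starved IDR mutant cells, 256.9 and 390.9 in starved interface mutant cells and 377.8 and 386.8 in starved wild-type cells. In unstressed cells it had 179.3 and 198.2 CPM in IDR mutant libraries, 214.4 and 180 in interface mutant libraries, and 62.27 and 173.1 in wild-type libraries. The IDR mutant allele lacks part of the counted gene, so its NAB2 level is not on the same footing.

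Unstressed wild type replicate 1 stood apart from its partner, in a way that followed gene length. Over the 23 members under 600 nt its level was higher than that of replicate 2 by a median of 1.002 on the log2 scale (22 of 23 above 0), and over the 15 longer ones the median was -0.449 (7 of 15 above 0). Across the 38 genes the log2 ratio of these libraries had a Spearman correlation of -0.646 with feature length, and across 5853 genes -0.458, as a description of 2 libraries. The other whole-cell pairs had Spearman correlations of expression between replicates of 0.963 to 0.996, against 0.91 for this pair. Starved interface mutant replicate 1 was the next to stand apart, with medians of 0.098 for short and -0.351 for long members. For the 38 genes together, and for some complexes, counts of wild-type starvation calls are given with and without unstressed replicate 1. So are the changes of many single members. Counts of wild-type calls among related genes include this library. What made this library differ was not tested. For fits that left out libraries, and for DESeq2, the share of all genes called is not given here. Their counts of members therefore have no background beside them.

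**Figure D1:**
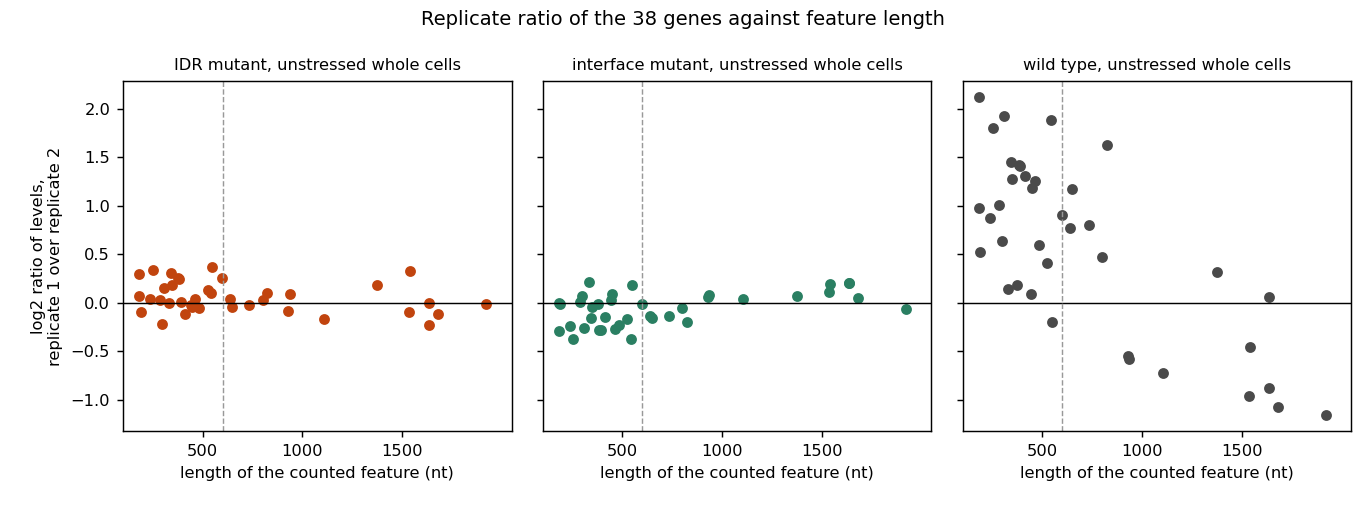
Log2 ratio of replicate 1 over replicate 2 (y axis) against the length of the counted feature in nt (x axis) for the 38 genes in unstressed whole cells of the 3 strains; each point is a gene and the dashed line marks 600 nt. In the wild type, 22 of 23 shorter genes lie above 0, up to 2.115, and ratios of longer genes reach -1.151, while in the mutants all ratios lie between -0.375 and 0.364.

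Starved cells of both mutants had higher levels of most respiratory genes, among them all of complex III and cytochrome c, while in the wild type 16 of 38 rose. In the IDR mutant 23 of 38 members rose and 0 fell, with a median log2 change of 1.116. Of 5853 genes tested, 33% were called up and 34.3% down, with a median of -0.046. The interface mutant gave 27 up and 0 down, median 1.28, against 29.7% of all genes up and 30.3% down and a median of -0.048. The wild type gave 16 up and 2 down, median 0.608, against 31.7% of all genes up and 34.5% down and a median of -0.052. Calls are edgeR's quasi-likelihood F test with Benjamini-Hochberg adjustment over all genes at a threshold of 0.05, and each change is a log2 fold change, starved over unstressed, ± its SE (standard error). Without unstressed replicate 1 the wild type had 27 up and 2 down and a median of 1.128, and without replicate 2 it had 18 up and 12 down. In the IDR mutant both starved libraries lay above both unstressed ones for 30 members (44.7% of all genes) and below for 4 (47% of all genes). In the interface mutant these counts were 36 (41%) and 1 (44.9%), and in the wild type 22 (39.5%) and 3 (40.4%). Calls lost in at least 1 fit that left out a library of the strain were QCR7, COX5B and COX9 in the IDR mutant, COX5B, COX8, COX13, ATP2 and ATP3 in the interface mutant, and ATP15 in the wild type.

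**Figure D2:**
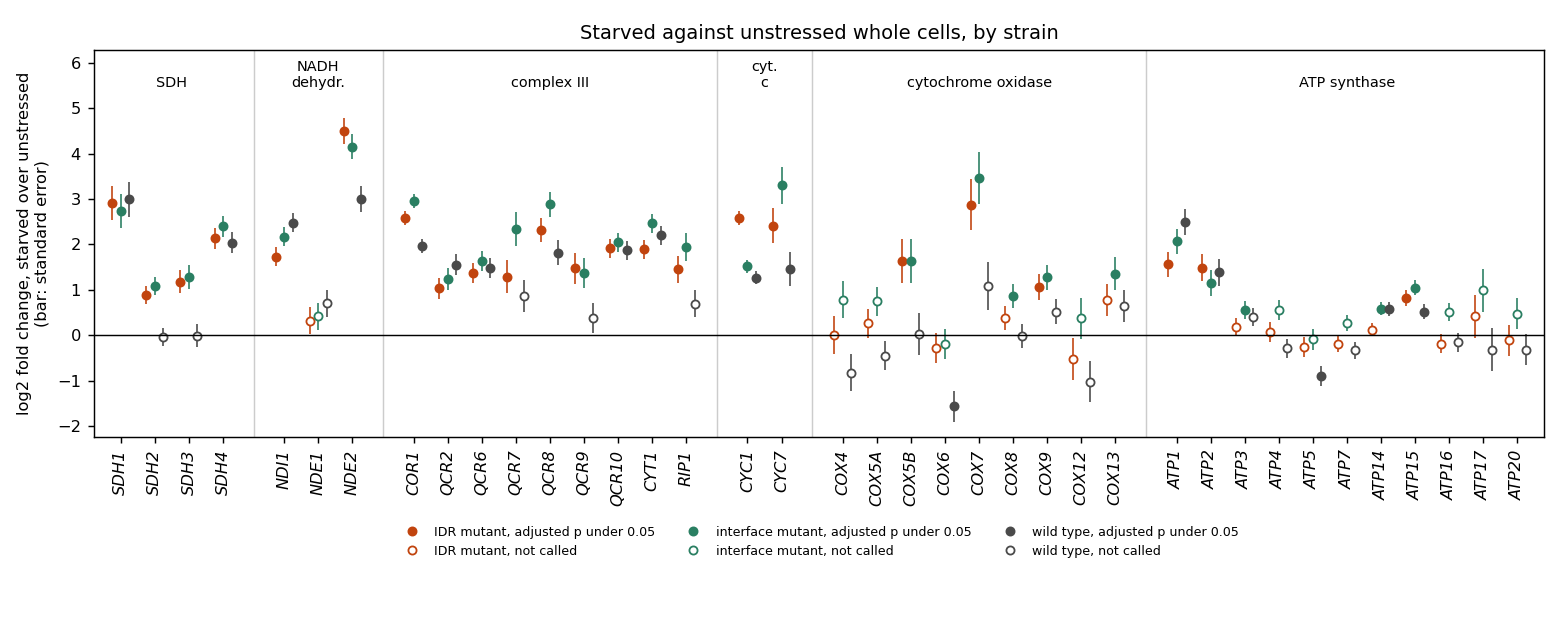
Log2 fold change of each gene, starved over unstressed whole cells (y axis), by strain, with genes grouped by complex (x axis); bars are standard errors and filled points passed an adjusted p of 0.05. All 9 complex III genes and both cytochrome c genes have filled points above 0 in both mutants. Points of cytochrome oxidase and ATP synthase genes lie on both sides of 0 in each strain, mostly above it in the interface mutant.

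The 15 members that rose in all 3 strains were SDH1, SDH4, NDI1, NDE2, COR1, QCR2, QCR6, QCR8, QCR10, CYT1, CYC1, CYC7, ATP1, ATP2 and ATP15. The 8 that rose in both mutants but were not called in the wild type were SDH2, SDH3, QCR7, QCR9, RIP1, COX5B, COX7 and COX9; without unstressed wild type replicate 1, all of these but SDH2 were called up there too. The 9 members called in no strain were NDE1, COX4, COX5A, COX12, ATP4, ATP7, ATP16, ATP17 and ATP20.

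At the entry of electrons, NDE2 (YDL085W, chrIV:303211-304848, + strand) had the largest change of the 38 genes in both mutants. It had 48.3 and 56.7 CPM per kb in starved and 2.12 and 2.49 in unstressed IDR mutant cells, 22.8 and 38.1 in starved and 1.82 and 1.58 in unstressed interface mutant cells, and 17.1 and 13.7 in starved and 1.96 and 1.88 in unstressed wild-type cells. The groups did not overlap in any strain, and all unstressed levels lay between 1.58 and 2.49. NDE2 rose by 4.5 ± 0.28 in the IDR mutant (adjusted p = 1.03e-06), 4.16 ± 0.28 in the interface mutant (adjusted p = 2.38e-06) and 3.00 ± 0.28 in the wild type (adjusted p = 1.88e-05). Its paralog NDE1 had 116 and 122 CPM per kb in starved and 91.8 and 99.3 in unstressed IDR mutant cells, and its changes of 0.32 ± 0.29 in the IDR mutant, 0.42 ± 0.29 in the interface mutant and 0.70 ± 0.30 in the wild type did not pass. NDI1, the internal dehydrogenase, rose in all strains, by 1.73 ± 0.20 in the IDR mutant, 2.18 ± 0.21 in the interface mutant and 2.48 ± 0.21 in the wild type. NDE1 had the highest of the 3 levels in every unstressed library, and after starvation NDE2 was still below NDE1 and NDI1 in every whole-cell library.

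More SDH genes were called up in the mutants than in the wild type, but no SDH gene passed an interaction test with the wild type. In each strain SDH1 and SDH4 changed more than SDH2 and SDH3. All 4 rose in both mutants, with medians of 1.655 for the IDR and 1.844 for the interface mutant, while in the wild type only SDH1 and SDH4 did. SDH1, the flavoprotein subunit (YKL148C, chrXI:169207-171129, − strand), had 123 and 147 CPM per kb in starved and 17.7 and 17.9 in unstressed IDR mutant cells, 60.3 and 111 in starved and 12.6 and 13.1 in unstressed interface mutant cells, and 64.4 and 55.4 in starved and 4.63 and 10.3 in unstressed wild-type cells. Starved levels were above unstressed ones in each strain, and the changes were 2.92 ± 0.38, 2.74 ± 0.38 and 3.00 ± 0.38 in the IDR mutant, the interface mutant and the wild type (2.53 without unstressed replicate 1). SDH2, the iron-sulfur subunit, had 147 and 169 CPM per kb in starved and 86.3 and 84.7 in unstressed IDR mutant cells, against 71.4 and 79.7 in starved and 90 and 65.1 in unstressed wild-type cells. Its groups overlapped in the wild type (-0.04 ± 0.21, adjusted p = 0.878) and not in the IDR mutant, where it rose by 0.89 ± 0.20 (adjusted p = 0.0038). SDH3, a membrane anchor, changed by 1.18 ± 0.26 in the IDR mutant, 1.29 ± 0.26 in the interface mutant and -0.01 ± 0.25 in the wild type, where it rose by 0.51 without unstressed replicate 1 (adjusted p = 0.0137). SDH4, the other anchor, rose by 2.13 ± 0.23, 2.40 ± 0.23 and 2.04 ± 0.23 in the IDR mutant, the interface mutant and the wild type.

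Complex III was the most uniform of the larger complexes. All 9 genes rose in both mutants, with medians of 1.474 in IDR mutant cells and 2.053 in interface mutant cells. In the wild type 6 of 9 rose (median 1.553), and all 9 did without unstressed replicate 1 (median 1.738). QCR8, a small subunit that takes part in ubiquinone binding (YJL166W, chrX:106434-106718, + strand), had the highest level per kb of the 38 genes in every starved whole-cell library. It had 3846 and 3612 CPM per kb in starved and 755 and 738 in unstressed IDR mutant cells, 4579 and 4122 in starved and 590 and 588 in unstressed interface mutant cells, and 3766 and 4014 in starved and 1467 and 732 in unstressed wild-type cells. Starved levels were 3612 to 4579 in the 3 strains, and the 1467 of unstressed wild type replicate 1 stood apart below them. QCR8 rose by 2.32 ± 0.27 in the IDR mutant, 2.88 ± 0.28 in the interface mutant and 1.82 ± 0.27 in the wild type (2.41 without unstressed replicate 1). COR1, a core subunit, had 411 and 462 CPM per kb in starved and 77.5 and 68.3 in unstressed IDR mutant cells, 432 and 476 in starved and 60 and 57.1 in unstressed interface mutant cells, and 291 and 293 in starved and 82.4 and 66.4 in unstressed wild-type cells. It rose by 2.58 ± 0.16 (adjusted p = 8.94e-07), 2.96 ± 0.16 (adjusted p = 5.73e-07) and 1.97 ± 0.15 (adjusted p = 6.44e-06) in the IDR mutant, the interface mutant and the wild type. CYT1, cytochrome c1, rose by 1.89 ± 0.21, 2.47 ± 0.21 and 2.20 ± 0.21 in the same order of strains. The second core subunit, QCR2, had the smallest change of the complex in both mutants, 1.04 ± 0.23 in IDR mutant cells and 1.24 ± 0.23 in interface mutant cells, and rose by 1.55 ± 0.24 in the wild type. The Rieske iron-sulfur protein gene RIP1 rose by 1.45 ± 0.31 in IDR mutant cells and 1.95 ± 0.31 in interface mutant cells; in the wild type its change was 0.69 ± 0.30 (adjusted p = 0.0671), and 1.39 without unstressed replicate 1 (adjusted p = 1.146e-05). QCR6, QCR7, QCR9 and QCR10, the other small subunits, rose in both mutants by 1.29 to 2.34.

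Both cytochrome c genes rose in every strain, and CYC1 differed between strains. CYC1, iso-1-cytochrome c (YJR048W, chrX:526335-526664, + strand), had 376 and 379 CPM per kb in starved and 62.9 and 63.1 in unstressed IDR mutant cells, 200 and 233 in starved and 81.0 and 69.7 in unstressed interface mutant cells, and 169 and 174 in starved and 74.7 and 67.8 in unstressed wild-type cells. It was thus highest in both starved IDR mutant libraries, with no overlap between the groups of any strain. It rose by 2.58 ± 0.15 (adjusted p = 5.87e-07) in the IDR mutant, 1.52 ± 0.14 (adjusted p = 1.71e-05) in the interface mutant and 1.27 ± 0.14 (adjusted p = 5.71e-05) in the wild type. CYC7, iso-2-cytochrome c (YEL039C, chrV:79636-79977, − strand), had 560 and 459 CPM per kb in starved and 106 and 85.3 in unstressed IDR mutant cells, 787 and 636 in starved and 67.8 and 75.8 in unstressed interface mutant cells, and 508 and 456 in starved and 257 and 93.7 in unstressed wild-type cells. It rose by 2.42 ± 0.39, 3.31 ± 0.41 and 1.46 ± 0.38 in the IDR mutant, the interface mutant and the wild type, the last with adjusted p = 0.00747. Without unstressed wild type replicate 1, the wild-type change of CYC7 was 2.36 (adjusted p = 5.066e-06).

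Cytochrome oxidase genes moved apart from each other. For comparison, 33% of all genes were called up in the IDR mutant, 29.7% in the interface mutant and 31.7% in the wild type. In the IDR mutant 3 of 9 rose, in the interface mutant 5 of 9, and in the wild type 0 of 9, where 1 fell; without unstressed replicate 1, 5 of 9 rose in the wild type and 1 fell. COX7, a small subunit (YMR256C, chrXIII:778945-779127, − strand), had the largest change of the complex in both mutants. It had 654 and 690 CPM per kb in starved and 93.5 and 88.8 in unstressed IDR mutant cells, 1604 and 924 in starved and 115 and 115 in unstressed interface mutant cells, and 730 and 766 in starved and 574 and 132 in unstressed wild-type cells. It rose by 2.88 ± 0.56 in IDR mutant cells (adjusted p = 0.00148) and 3.46 ± 0.57 in interface mutant cells (adjusted p = 0.000661). The wild-type change of 1.08 ± 0.53 did not pass (adjusted p = 0.0945), and it was 2.50 without unstressed replicate 1 (adjusted p = 2.87e-05). COX6 went the other way: it had 112 and 92.7 CPM per kb in starved and 423 and 186 in unstressed wild-type cells and fell by 1.57 ± 0.33 there (adjusted p = 0.00256), and also without unstressed replicate 1, to a log2 change of -0.86 (adjusted p = 0.001634). In the mutants COX6 had changes of -0.28 ± 0.33 in IDR mutant cells and -0.19 ± 0.33 in interface mutant cells, with 150 and 108 CPM per kb in starved and 154 and 159 in unstressed IDR mutant cells. COX9 rose in both mutants, by 1.06 ± 0.28 in IDR mutant cells and 1.27 ± 0.28 in interface mutant cells. COX8 (0.87 ± 0.26) and COX13 (1.36 ± 0.36) rose in the interface mutant. Neither was called in the other strains in the main fit, and neither interaction with the wild type passed. Without unstressed replicate 1 the wild-type change of COX8 was 0.48. COX13 had 642 and 624 CPM per kb in starved and 590 and 223 in unstressed wild-type cells, the 590 in unstressed replicate 1. COX4 and COX12 had changes between -1.03 and 0.78, and none passed. The counted feature of COX4 is 822 nt long and holds 354 nt beyond its 468 nt of coding sequence. Features of QCR9 (213 of 414 nt), QCR10 (63 of 297 nt) and COX5B (88 of 544 nt) also hold sequence beyond the coding part. Levels per kb of these genes are on another footing than those of members without such sequence.

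ATP synthase genes were mixed, with 3 of 11 up in the IDR mutant, 5 of 11 in the interface mutant, and 4 up and 1 down in the wild type. Of all genes, 33%, 29.7% and 31.7% were called up in the same order of strains. The counts of the IDR mutant and the wild type were thus near the share of all genes. ATP1 and ATP2, the alpha and beta subunits of the catalytic head, rose in all strains: ATP1 by 1.56 ± 0.27, 2.07 ± 0.28 and 2.50 ± 0.28, and ATP2 by 1.49 ± 0.30, 1.15 ± 0.29 and 1.38 ± 0.29, in the IDR mutant, the interface mutant and the wild type. Without unstressed replicate 1 the wild-type changes were 2.12 for ATP1 and 0.98 for ATP2. ATP2 had 645 and 718 CPM per kb in starved and 235 and 250 in unstressed IDR mutant cells, 374 and 573 in starved and 222 and 205 in unstressed interface mutant cells, and 382 and 370 in starved and 97.8 and 190 in unstressed wild-type cells. ATP15, the epsilon subunit of the central stalk, also rose in all 3, by 0.82 ± 0.17, 1.05 ± 0.17 and 0.52 ± 0.17 (0.80 in the wild type without unstressed replicate 1), while ATP16, the delta subunit, was called in none. ATP3, the gamma subunit, rose in the interface mutant (0.55 ± 0.20, adjusted p = 0.0393), a call lost in 3 of 4 fits that left out a library (adjusted p up to 0.2469). Of the stator and membrane subunits, ATP14 rose in the interface mutant and in the wild type (0.58 ± 0.14 in each), and ATP5, the stator subunit that binds the head, fell in the wild type by 0.91 ± 0.22 (adjusted p = 0.00585) and by 0.47 without unstressed replicate 1 (adjusted p = 0.007935). ATP5 had 164 and 173 CPM per kb in starved and 398 and 234 in unstressed wild-type cells, against 199 and 229 in starved and 260 and 253 in unstressed IDR mutant cells. ATP4, ATP7, ATP17 and ATP20 were called in no strain, though without unstressed replicate 1 ATP17 (0.94) and ATP20 (0.45) passed as higher in the starved wild type. The ATP1 feature overlaps another open reading frame on the other strand over 251 nt (15.3% of its length), and the ATP14 feature shares 32 nt (8.53%) with one on the same strand; counting was strand-specific, per the file headers.

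Summed over their genes, complex III and cytochrome c had the largest ratios of starved to unstressed levels in both mutants. The complex III sum was 3.533 times as high in starved as in unstressed IDR mutant cells, 5.128 times in the interface mutant and 2.754 times in the wild type. The cytochrome c sum gave 5.598, 6.309 and 2.654, the SDH sum 2.717, 2.915 and 1.365, and the NADH dehydrogenase sum 2.111, 2.276 and 2.718, in the same order of strains. Cytochrome oxidase gave 1.937, 2.619 and 1.146, and ATP synthase 1.394, 1.734 and 1.083. With unstressed replicate 1 left out, the wild-type ratios were 3.954 for complex III, 4.05 for cytochrome c, 1.783 for SDH, 2.093 for the NADH dehydrogenases, 2.071 for cytochrome oxidase and 1.509 for ATP synthase. With replicate 2 left out instead they were 2.113, 1.974, 1.105, 3.878, 0.7918 and 0.8443, with cytochrome oxidase and ATP synthase below 1. These ratios without a library were chosen after the data were seen. In the wild type the unstressed sums of cytochrome oxidase and ATP synthase ranged from 1966 to 5142 and from 2658 to 4752 CPM per kb between the 2 libraries, a spread that holds the starved values.

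**Figure D3:**
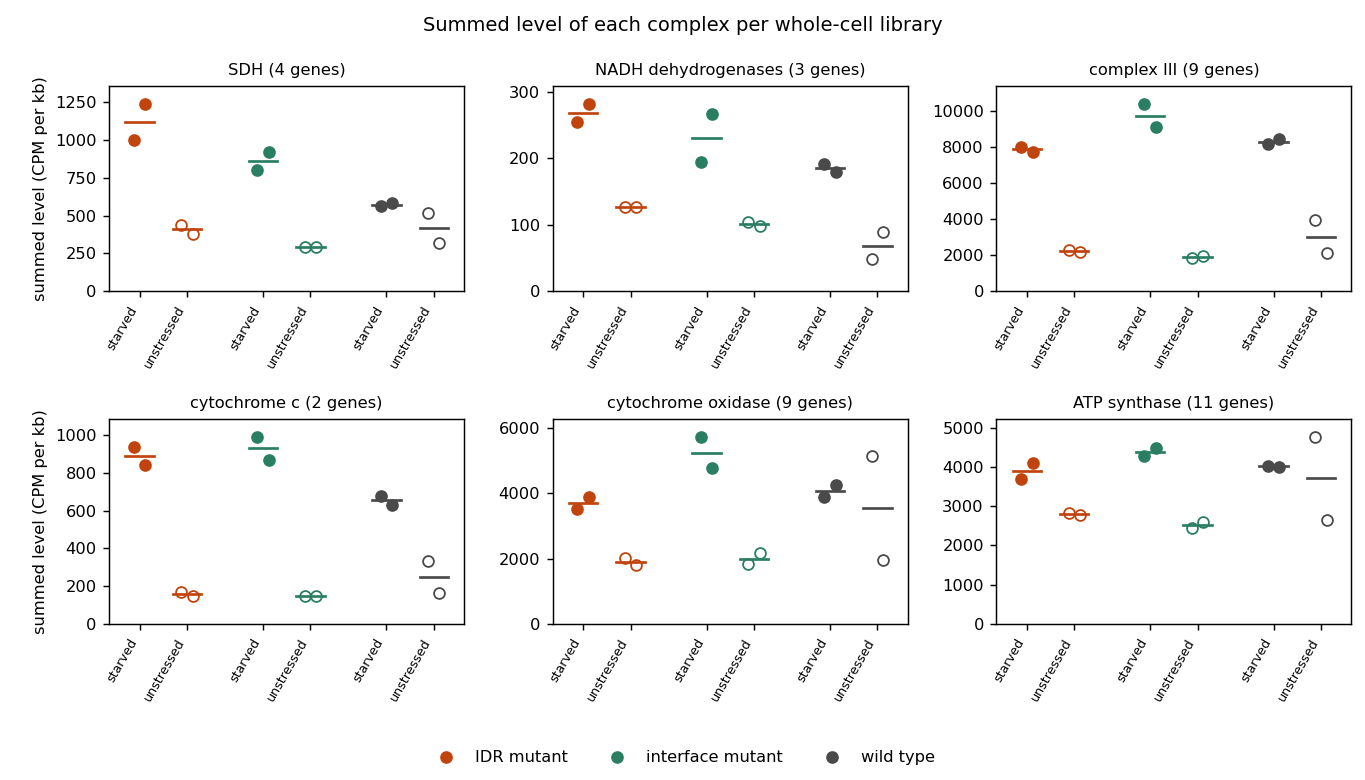
Summed level of each complex in CPM per kb (y axis, from 0) in every whole-cell library, by strain and condition (x axis); filled circles are starved, open circles unstressed, and lines are group means of 2 libraries. Starved libraries lie above unstressed ones in each panel for both mutants, whereas in the wild type the unstressed libraries lie wide apart.

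The COX5A to COX5B balance moved toward COX5B on starvation. COX5A (YNL052W, chrXIV:531725-532186, + strand) had 263 and 292 CPM per kb in starved and 235 and 228 in unstressed IDR mutant cells, 401 and 416 in starved and 221 and 267 in unstressed interface mutant cells, and 291 and 304 in starved and 574 and 240 in unstressed wild-type cells, and was called in no strain. COX5B (YIL111W, chrIX:155222-155765, + strand, with an intron of 88 nt inside the feature) had 411 and 405 CPM per kb in starved and 136 and 127 in unstressed IDR mutant cells, 622 and 458 in starved and 152 and 197 in unstressed interface mutant cells, and 496 and 633 in starved and 873 and 237 in unstressed wild-type cells. It rose by 1.63 ± 0.48 in both mutants (adjusted p = 0.0136 for the IDR and 0.0153 for the interface mutant), and its wild-type change was 0.02 ± 0.47, or 1.25 without unstressed replicate 1 (adjusted p = 0.0007149). The COX5B call was lost in 2 of 4 fits that left out a library in the IDR mutant (adjusted p up to 0.07102) and in 3 of 4 in the interface mutant (adjusted p up to 0.09484). Within a library, the log2 ratio of COX5A to COX5B per kb does not depend on library size. It was -0.65 and -0.47 in starved IDR mutant cells, -0.63 and -0.14 in starved interface mutant cells and -0.77 and -1.06 in starved wild-type cells. In unstressed cells it was 0.79 and 0.84 in IDR mutant libraries, 0.55 and 0.44 in interface mutant libraries and -0.61 and 0.02 in wild-type libraries. Per kb of counted feature, COX5B was thus the higher of the pair in 6 of 6 starved libraries and COX5A in 5 of 6 unstressed ones. Unstressed wild type replicate 1 was the exception, and unstressed wild type replicate 2 was near parity at 0.02. The COX5B feature includes its intron. Dividing by its 456 nt of coding sequence would lower the ratio in every library by the same amount. That would put unstressed wild type replicate 2 on the COX5B side as well. The mean difference over strains was -0.96, with p = 0.009259 in a 2-sided exact permutation test of condition within strain, the smallest p that this design allows, and 0.01852 after adjustment over 4 ratio tests. A single strain, with 2 libraries against 2, cannot pass an exact permutation test at the 0.05 threshold.

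For CYC1 and CYC7 the strains did not move alike. The log2 ratio of CYC1 to CYC7 was -0.57 and -0.28 in starved and -0.75 and -0.43 in unstressed IDR mutant cells, -1.97 and -1.45 in starved and 0.26 and -0.12 in unstressed interface mutant cells, and -1.59 and -1.39 in starved and -1.78 and -0.47 in unstressed wild-type cells. CYC7 exceeded CYC1 per kb in every library but unstressed interface mutant replicate 1. The mean difference over strains was -0.66 (exact permutation p = 0.1574, adjusted over 4 ratio tests 0.1574), so the shift did not pass. The interface mutant difference rests on libraries that do not overlap, the IDR mutant and wild-type ones on libraries that do.

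**Figure D4:**
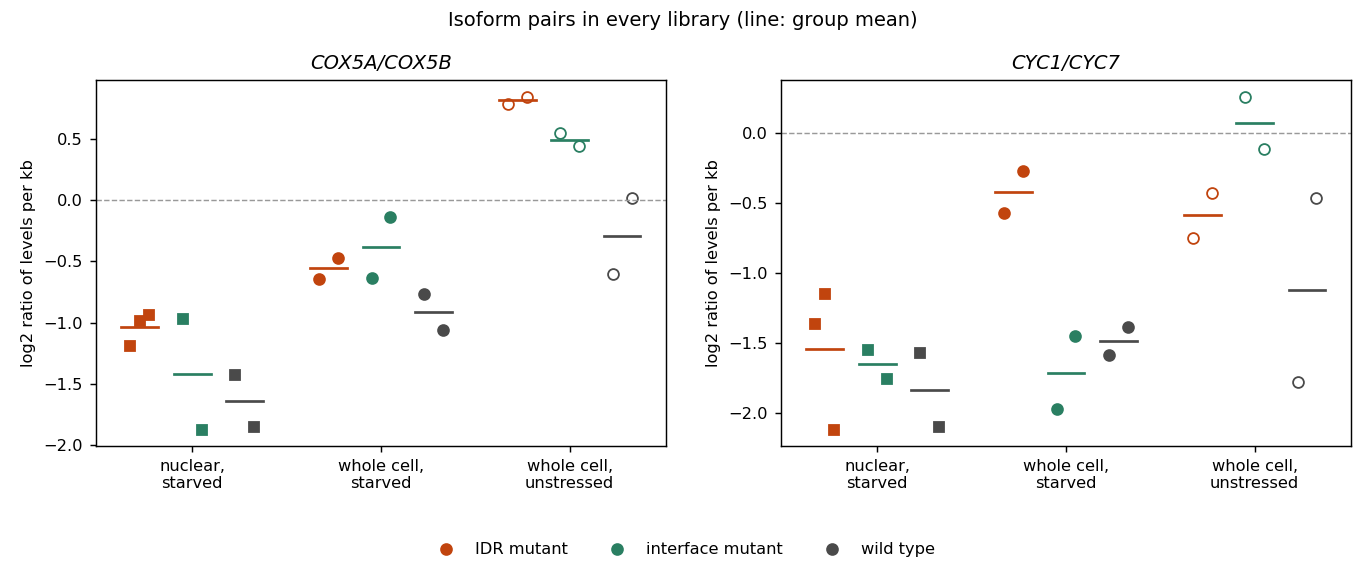
Log2 ratio of levels per kb (y axis) of COX5A over COX5B (left) and CYC1 over CYC7 (right) in each library of the nuclear fraction (squares), starved whole cells (filled circles) and unstressed whole cells (open circles), coloured by strain, with group means as lines. The COX5A to COX5B ratio lies below 0 in all starved libraries and lowest, down to -1.87, in nuclear ones; the CYC1 to CYC7 ratio has no such order.

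Between strains in the presence of glucose, none of the 38 genes was called. For the IDR mutant against the wild type 0 members passed, against 1.67% of 5853 genes; 18 had an unadjusted p under 0.05 in edgeR and DESeq2 called 12. For the interface mutant 0 members passed, against 0% of all genes; 15 had an unadjusted p under 0.05, and DESeq2 called 3. These counts hinge on the unlike wild-type pair: without wild type replicate 2 they were 31 and 32, and without replicate 1 they were 0 in both. The COX5B level illustrates this, at 136 and 127 CPM per kb in unstressed IDR mutant cells, against 873 and 237 in unstressed wild-type cells (-2.07 ± 0.49, adjusted p = 0.062).

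After starvation, 8 members were higher in the IDR mutant than in the wild type and 0 were lower, beside 15.9% of all genes up and 13.3% down. They included all 4 SDH genes: SDH1 (1.17 ± 0.35, adjusted p = 0.0341), SDH2 (1.07 ± 0.21, adjusted p = 0.00503), SDH3 (0.91 ± 0.26, adjusted p = 0.0264) and SDH4 (0.93 ± 0.22, adjusted p = 0.0122). SDH2, for example, had 147 and 169 CPM per kb in starved IDR mutant cells and 71.4 and 79.7 in starved wild-type cells. The other 4 were NDE2 (1.77 ± 0.25, adjusted p = 0.00109), CYC1 (1.14 ± 0.14, adjusted p = 0.000723), CYT1 (0.64 ± 0.20, adjusted p = 0.0404) and COR1 (0.58 ± 0.15, adjusted p = 0.0178). No ATP synthase or cytochrome oxidase gene passed. For all 8, both IDR mutant libraries lay above both wild-type libraries. Only NDE2 and CYC1 were called whichever of the 4 starved libraries was left out. The calls of SDH1, SDH3 and CYT1 were lost in 4 of 4 such fits, those of SDH4 and COR1 in 3 and that of SDH2 in 1. CYT1 also lost its call with upper-quartile factors. Left-out differences ran from 1.04 to 1.29 for SDH1, 0.77 to 1.03 for SDH3 and 0.53 to 0.74 for CYT1. The count of 8 also depended on the libraries that stand apart, and no share of all genes is given for the fit without them. The count was 24 (14 higher, 10 lower) in a fit without the libraries that stand apart; the same 8 genes were among the higher, and COX4, COX5B, COX12, COX13, ATP14, ATP16, ATP17, ATP20, QCR7 and QCR10 were the lower.

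For the starved interface mutant against the wild type 0 members passed, beside 0.478% of all genes; 6 had an unadjusted p under 0.05 in edgeR and DESeq2 called 3. A fit without both libraries that stand apart leaves 1 starved interface mutant library. In that fit the median log2 difference of the 38 genes was 0.428, against 0.385 in the main fit. Between the starved mutants, CYC1 (0.80 ± 0.14, adjusted p = 0.0056) and NDE2 (0.79 ± 0.24, adjusted p = 0.0445) were higher in the IDR mutant than in the interface mutant, and ATP16 was lower (-0.70 ± 0.21, adjusted p = 0.0417), beside 10.4% of all genes up and 9.86% down. ATP16 had 187 and 235 CPM per kb in starved IDR mutant cells and 334 and 353 in starved interface mutant cells, without overlap. None of the 3 kept its call in every fit that left out a library.

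The difference in the starvation response itself was tested as an interaction. Against the wild type, NDE2 (1.5 ± 0.38, adjusted p = 0.038) and CYC1 (1.31 ± 0.20, adjusted p = 0.00808) had a stronger rise in the IDR mutant, and no other of the 38 passed, beside 11.7% of all genes. DESeq2 called 6 members. The NDE2 call was lost in 7 of 8 fits that left out a library, and also with upper-quartile factors. The CYC1 call was lost in 3 of 8 such fits. Left-out estimates ran from 1.35 to 1.66 for NDE2 and from 1.24 to 1.38 for CYC1. For the interface mutant 0 passed, beside 0.0171% of all genes; 18 had an unadjusted p under 0.05 in edgeR, and DESeq2 called 5. For the other members the test therefore did not show a response that differed between a mutant and the wild type.

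Of 60 further genes of respiratory assembly and control, starvation raised 27 and lowered 13 in the IDR mutant, raised 24 and lowered 14 in the interface mutant, and raised 18 and lowered 24 in the wild type. The wild-type counts include unstressed replicate 1, the library that stands apart, and are not given without it. The shares of all genes called up and down were 33% and 34.3% for IDR mutant cells, 29.7% and 30.3% for interface mutant cells, and 31.7% and 34.5% for wild-type cells. Of 6 regulators, 4 rose and 2 fell in each mutant, and 4 rose and 1 fell in the wild type. HAP4, the activator subunit, had 185 and 178 CPM per kb in starved and 23.6 and 22.3 in unstressed IDR mutant cells. It had 233 and 227 in starved and 13.3 and 14.6 in unstressed interface mutant cells. Wild-type cells had 162 and 152 when starved and 15.1 and 14.8 when unstressed, with no overlap in any strain. It rose by 2.98 ± 0.13, 4.04 ± 0.14 and 3.39 ± 0.13 in the IDR mutant, the interface mutant and the wild type. In unstressed cells HAP4 was higher in the IDR mutant than in the wild type by 0.61 ± 0.13 (adjusted p = 0.0478). Of its partners, HAP2 rose in each strain (0.76 ± 0.23, 0.84 ± 0.22 and 0.80 ± 0.23). HAP3 fell in each (-1.74 ± 0.34, -1.44 ± 0.32 and -1.56 ± 0.31). HAP5 fell in the IDR mutant (-1.02 ± 0.27) and the interface mutant (-1.20 ± 0.26) with -0.35 ± 0.26 in the wild type (adjusted p = 0.2627). The HAP2 call was lost in some fits that left out a library. HAP1, the heme-responsive activator, rose by 0.68 ± 0.15, 0.54 ± 0.15 and 0.81 ± 0.15. ROX1, the repressor of genes of low oxygen, rose by 5.08 ± 0.50, 4.24 ± 0.48 and 5.08 ± 0.51, and had 1465 and 1451 CPM per kb in starved and 42.4 and 43.7 in unstressed IDR mutant cells, against 763 and 752 in starved and 10.1 and 34.7 in unstressed wild-type cells. The difference in ROX1 between the starved IDR mutant and the wild type did not pass (0.94 ± 0.43, adjusted p = 0.1278).

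The paralogs of SDH subunits were, like the SDH genes, called higher in the starved IDR mutant than in the starved wild type. SHH4, the paralog of SDH4, had 98.2 and 120 CPM per kb in starved and 11.5 and 11.8 in unstressed IDR mutant cells, 29.2 and 33.0 in starved and 7.83 and 10.8 in unstressed interface mutant cells, and 18.6 and 16.3 in starved and 20.5 and 12.3 in unstressed wild-type cells. It rose by 3.22 ± 0.27 in IDR mutant cells and 1.73 ± 0.27 in interface mutant cells and changed by 0.09 ± 0.28 in the wild type, with an interaction of 3.13 ± 0.38 between the IDR mutant and the wild type (adjusted p = 0.004999). In starved cells SHH4 was higher in the IDR mutant than in the wild type by 2.64 ± 0.27 (adjusted p = 0.0003889), SDH9, the paralog of SDH1, by 0.99 ± 0.29 (adjusted p = 0.02875), and SHH3, the paralog of SDH3, by 2.48 ± 0.74 (adjusted p = 0.03219). SDH9 and SHH3 were low throughout, at 13.6 and 13.7 CPM per kb for SDH9 in starved IDR mutant cells against 5.54 and 8.21 in starved wild-type cells, and their calls were lost in fits that left out a library. COX26, a small protein bound to cytochrome oxidase, had 587 and 781 CPM per kb in starved IDR mutant cells, 122 and 114 in starved interface mutant cells and 137 and 129 in starved wild-type cells. It was higher in the starved IDR mutant than in the wild type by 2.36 ± 0.28 (adjusted p = 0.0005863), and it rose on starvation in all strains, by 5.32 ± 0.33, 4.54 ± 0.36 and 4.0 ± 0.34. In starved cells ATP22 (1.1 ± 0.15, adjusted p = 0.0009748) and CBP3, a cytochrome b assembly factor (0.89 ± 0.13, adjusted p = 0.001132), were also higher in the IDR mutant than in the wild type. Other related genes with the smallest adjusted p were SDH6, an SDH assembly factor, which rose by 4.77 ± 0.34, 4.52 ± 0.33 and 4.04 ± 0.32, and CYT2, the heme lyase of cytochrome c1, which rose by 2.39 ± 0.13, 2.68 ± 0.13 and 2.55 ± 0.13. The 38 assembly factors were mixed: 13 rose and 7 fell in IDR mutant cells, 10 rose and 9 fell in interface mutant cells, and 8 rose and 19 fell in wild-type cells. Here too the wild-type counts include unstressed replicate 1, so their difference from the mutants may rest on that library.

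The nuclear fraction of starved cells was compared with starved whole cells to ask which RNAs stand higher or lower in the nucleus. The nuclear libraries did not group by strain: nuclear interface mutant replicate 1 was closest to nuclear IDR mutant replicate 3 (Spearman 0.988), and interface mutant replicate 2 to wild type replicate 2 (0.99), while IDR mutant replicates 1 and 2 were close to each other (0.989) and to wild type replicate 1 (0.988 each). NAB2 had 250.8, 272.6 and 139.4 CPM in nuclear IDR mutant libraries, 132.1 and 317.4 in nuclear interface mutant libraries, and 342.8 and 381.7 in nuclear wild-type libraries, so replicate 3 of the IDR mutant and replicate 1 of the interface mutant were low together. Nuclear interface mutant replicate 1 correlated at 0.964 and 0.961 with starved whole-cell IDR mutant libraries, against 0.9 and 0.894 with interface mutant ones. Nuclear wild type replicate 2 was also closer to the IDR mutant ones (0.913 and 0.907) than to whole-cell wild-type libraries (0.882 each). COX26 had 269, 65.6 and 1699 CPM per kb in nuclear IDR mutant libraries. It had 1504 and 188 in nuclear interface mutant libraries, and 110 and 136 in nuclear wild-type libraries. Nuclear libraries are called here by their labels. Whether strain labels were exchanged among them was not tested, and each nuclear value by strain holds only if they were not. Transcripts of the mitochondrial genome took 0.0121 to 0.0511% of counts in nuclear libraries and 0.0813 to 0.184% in starved whole cells, so RNA from mitochondria was lower in the nuclear fraction. Its part in the results below was not tested.

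Respiratory genes were, as a group, lower in the nuclear fraction than in whole cells. In the IDR mutant 0 of 38 were higher and 12 lower (median -0.475), beside 4.63% of 5944 genes up and 4.98% down and a median of 0.012. The interface mutant had 1 higher and 17 lower (median -0.654), beside 17.3% up and 17% down and a median of 0.044. The wild type had 2 higher and 12 lower (median -0.448), beside 17% up and 14% down and a median of 0.02. In the IDR mutant all nuclear libraries lay below both whole-cell ones for 23 members (25.4% of all genes) and above for 2 (24.3% of all genes). In the interface mutant these counts were 23 (33%) and 4 (33.8%), and in the wild type 25 (37.7%) and 5 (39.5%). The IDR mutant count was the least stable: it was 0 without either whole-cell library, 1 without nuclear replicate 1, 5 without nuclear replicate 2 and 20 without nuclear replicate 3. The wild-type count was 6 without whole-cell replicate 1, 7 without whole-cell replicate 2 and 7 without nuclear replicate 2; that of the interface mutant was 15 to 18 in such fits, 18 of them without nuclear replicate 1.

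**Figure D5:**
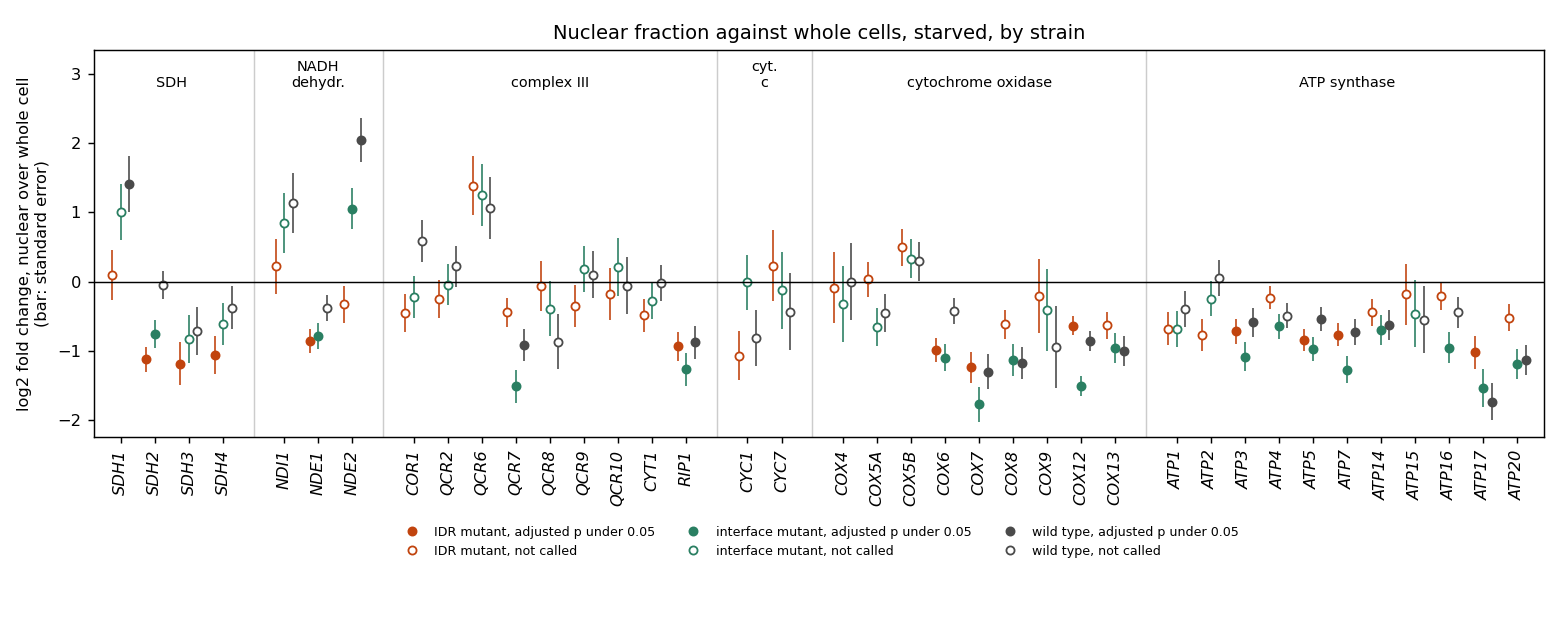
Log2 fold change of each gene, nuclear fraction over whole cells, starved (y axis), by strain, with genes grouped by complex (x axis); bars are standard errors and filled points passed an adjusted p of 0.05. Filled points below 0 crowd in cytochrome oxidase and ATP synthase, and those above 0 are SDH1 in the wild type and NDE2 in the interface mutant and the wild type.

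The 7 members lower in the nuclear fraction of all 3 strains were RIP1, COX7, COX12, ATP3, ATP5, ATP7 and ATP17. All 7 kept their calls in the interface mutant when a library was left out, COX7, COX12 and ATP17 did in the wild type, and none did in the IDR mutant. COX7 had 228, 299 and 302 CPM per kb in nuclear and 636 and 670 in whole-cell IDR mutant libraries, 386 and 332 in nuclear and 1563 and 896 in whole-cell interface mutant libraries, and 277 and 314 in nuclear and 712 and 747 in whole-cell wild-type libraries. The fractions did not overlap in any strain, and the differences were -1.24 ± 0.22, -1.78 ± 0.25 and -1.30 ± 0.25 in the IDR mutant, the interface mutant and the wild type. ATP17, a membrane subunit of ATP synthase, had 179, 263 and 307 CPM per kb in nuclear and 458 and 557 in whole-cell IDR mutant libraries, 217 and 283 in nuclear and 828 and 624 in whole-cell interface mutant libraries, and 224 and 274 in nuclear and 786 and 869 in whole-cell wild-type libraries. Its differences were -1.03 ± 0.24 (adjusted p = 0.0262), -1.54 ± 0.27 (adjusted p = 0.00313) and -1.74 ± 0.27 (adjusted p = 0.00198). RIP1 had log2 differences of -0.94 ± 0.21, -1.27 ± 0.23 and -0.88 ± 0.23, and COX12 of -0.64 ± 0.14, -1.52 ± 0.15 and -0.86 ± 0.15. COX8, COX13, QCR7, ATP14 and ATP20 were lower in the interface mutant and the wild type, and SDH2, NDE1 and COX6 in both mutants. SDH3 and SDH4 were lower in the IDR mutant, and ATP4 and ATP16 in the interface mutant.

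The calls above 0 were of NDE2 and SDH1, both genes of electron entry. NDE2 had 36.6, 31.0 and 54.2 CPM per kb in nuclear and 47.0 and 55.1 in whole-cell IDR mutant libraries. It had 58.2 and 64.5 in nuclear and 22.2 and 36.9 in whole-cell interface mutant libraries, and 52.4 and 71.7 in nuclear and 16.6 and 13.3 in whole-cell wild-type libraries. It was higher in the nuclear fraction of the interface mutant (1.05 ± 0.30, adjusted p = 0.0204) and the wild type (2.04 ± 0.31, adjusted p = 0.00191), and the IDR mutant difference of -0.33 ± 0.27 did not pass. Its nuclear levels were lower in all 3 IDR mutant libraries than in both interface mutant ones, while its whole-cell levels were highest in the IDR mutant. The interface mutant call was lost in 2 of 4 fits that left out a library. SDH1 was higher in the nuclear fraction of the wild type, with 124 and 188 CPM per kb in nuclear and 62.8 and 54.0 in whole-cell libraries (1.41 ± 0.41, adjusted p = 0.0232), a call lost in 3 of 4 fits that left out a library (adjusted p up to 0.156). In the IDR mutant SDH1 had 99.5, 105 and 217 CPM per kb in nuclear and 120 and 143 in whole-cell libraries (0.10 ± 0.36, adjusted p = 0.883). QCR6, the acidic hinge subunit of complex III, had 2249, 1886 and 5242 CPM per kb in nuclear and 1285 and 1104 in whole-cell IDR mutant libraries; nuclear libraries lay above whole-cell ones in each strain, but the differences of 1.39 ± 0.43, 1.25 ± 0.45 and 1.07 ± 0.45 did not pass. The nuclear to whole-cell ratios of summed levels were 0.685, 0.575 and 0.631 for ATP synthase and 0.797, 0.615 and 0.621 for cytochrome oxidase in the IDR mutant, the interface mutant and the wild type. They were 1.138, 0.919 and 0.877 for complex III, 0.877, 0.929 and 0.695 for cytochrome c, 0.527, 0.730 and 0.911 for SDH and 0.818, 1.28 and 1.726 for the NADH dehydrogenases.

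The COX5A to COX5B ratio was lower still in the nuclear fraction. The log2 ratio was -1.19, -0.99 and -0.94 in nuclear IDR mutant libraries, -0.97 and -1.87 in nuclear interface mutant libraries and -1.43 and -1.85 in nuclear wild-type libraries, each below every whole-cell library of its strain. The mean difference over strains was -0.75, with an exact permutation p of 0.002778, the smallest that its 360 assignments allow, and 0.01111 after adjustment over 4 ratio tests. COX5B carries an intron and COX5A none; reads over the intron count toward COX5B in both fractions, and whether they differ between fractions was not tested. With the 2 shallow nuclear libraries kept, the difference was -0.5638 (exact permutation p = 0.06). The CYC1 to CYC7 ratio differed by -0.47 (exact permutation p = 0.05833, adjusted over 4 ratio tests 0.0778) and did not pass. Among nuclear libraries, 0 of the 38 genes was called for the IDR mutant against the wild type, beside 0.0168% of all genes, and 0 for the interface mutant against the wild type, beside 0%; in edgeR 3 and 1 had an unadjusted p under 0.05, and DESeq2 called 0 in both.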

How the data were processed

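Poly(A) RNA, selected with oligo dT of 25 nt, was sequenced strand-specifically in 21 libraries, per the labels' protocols. The deposited values are raw read counts per gene, which the authors made with featureCounts 2.0.1 on annotation R64-2-1 (whole cells), with the reverse-stranded setting and fractional counting of multi-mapping reads, per the file headers; all values were whole numbers. Per the submitters' processing notes, reads were trimmed with cutadapt and aligned with TopHat2, with versions not given in the sources used here. Nuclear files add 6 spike-in features, of which 4 have counts and none was used. Windows and positions come from RefSeq assembly R64, on which 37 of the 38 genes have the start and end of the count files.

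Fits used edgeR 4.0.16 in R 4.3.3 (TMM factors, filterByExpr with a minimum count of 10, quasi-likelihood F test, Benjamini-Hochberg over all genes): one of the 12 whole-cell libraries with 5853 genes, the other of the 13 starved libraries with 5944 genes, for 15 comparisons. Nuclear libraries under 0.2 of the nuclear median depth of 8719732 were left out. Pair ratios used counts per kb with 0.5 added to each count. On simulated data the whole-cell fit recovered 58% of changes of 1 and 99% of changes of 2 on the log2 scale for starvation in the wild type, with 2.48% false calls. The fit of both fractions recovered 48% and 100% for nuclear against whole-cell wild type, with 3.27%. Only 200 genes were changed in each simulation, equally up and down, and no library stood apart. The rates need not hold for the data, where many more genes were called. The alternatives were DESeq2 1.42.0, other scaling factors, no filter, fits of the compared groups alone, a replicate block, and each library left out; a crossed replicate block was added after seeing the data. Where a group was left with 1 library, it was assumed to vary like the others. The genes named are all 38, the regulators, the SDH paralogs, NAB2, and up to 3 further related genes per comparison with the smallest adjusted p. The members and lists were chosen with earlier results of these data known.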

Additional observations from a re-analysis of the deposited data

Results flagged for a closer look

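NDE2 and CYC1 were marked because their starvation responses differed between the IDR mutant and the wild type by the interaction test, by 1.5 ± 0.38 for NDE2 (adjusted p = 0.038) and 1.31 ± 0.20 for CYC1 (adjusted p = 0.00808, edgeR quasi-likelihood test with Benjamini-Hochberg adjustment). Both starved IDR mutant libraries were above both starved wild-type libraries for each gene. The NDE2 call was lost in 7 of 8 fits that left out a library, and the CYC1 call in 3 of 8.

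COR1, a core subunit of complex III, had nuclear libraries wholly below whole-cell libraries in the IDR mutant (279, 324 and 324 against 400 and 449 CPM per kb, log2 difference -0.46) and wholly above them in the wild type (303 and 555 against 284 and 286 CPM per kb, 0.59). Neither difference passed, and the difference between the strains was not tested.

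The 2 shallow nuclear libraries, left out of the fits, held 8 counts (wild type replicate 3) and 29 counts (interface mutant replicate 3) in the 38 genes, which is too few for a value per gene.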

How the results depend on the processing

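The starvation counts of both mutants kept within 1.5 times their values under every alternative run (20 to 31 members called in the IDR mutant, 23 to 34 in the interface mutant). In the wild type, 18 members were called; leaving out a library gave 17 to 30, and leaving out both libraries that stand apart gave 31. Without unstressed wild type replicate 1, SDH3 (0.51), COX8 (0.48), ATP17 (0.94) and ATP20 (0.45) turned to rises in the wild type and COX13 to -0.74 in the interaction with the IDR mutant. Without replicate 2, COX5B turned to -0.63 in wild-type starvation and ROX1 to -1.15 in that interaction. Between these fits the wild-type change ran from -0.39 to 0.51 for SDH3, -0.63 to 1.25 for COX5B, -0.39 to 0.48 for COX8, -0.98 to 0.94 for ATP17 and -0.83 to 0.45 for ATP20, and the interaction from -0.74 to 0.66 for COX13 and -1.15 to 0.63 for ROX1. Without the libraries that stand apart, wild-type starvation gave SDH3 0.50, COX5A 0.30, COX8 0.48, ATP17 0.93 and ATP20 0.45; COX13 gave 0.45 in the unstressed IDR mutant against the wild type, QCR6 -0.34 in the starved interface mutant against the wild type, and the IDR mutant interaction gave QCR7 -0.45, COX12 -0.66, COX13 -0.74, ATP17 -0.52 and ATP20 -0.56. The same setting gave counts of 11 (unstressed IDR mutant against wild type), 24 (starved IDR mutant against wild type), 24 (starved interface mutant against wild type), 15 (starved IDR mutant against interface mutant), 15 (IDR mutant interaction) and 9 (interface mutant interaction). The cause was not tested. Shares of all genes called in the alternative fits are not given, so these counts of members have no background beside them. DESeq2 gave 12 and 3 for the unstressed IDR and interface mutants against the wild type, 3 for the starved interface mutant against the wild type, 6 for the IDR mutant interaction and 5 for the interface mutant interaction. Upper-quartile factors gave 1 for the IDR mutant interaction. Fits of the compared groups alone gave 24 for the starved IDR mutant against the wild type, 7 for the starved IDR mutant against the interface mutant and 5 for nuclear against whole-cell IDR mutant. Leaving out a library gave 0 to 31 (unstressed IDR mutant against wild type), 0 to 32 (unstressed interface mutant against wild type), 2 to 5 (starved IDR mutant against wild type), 0 to 2 (starved interface mutant against wild type, and starved IDR mutant against interface mutant), 0 to 30 (IDR mutant interaction), 0 to 29 (interface mutant interaction), 6 to 11 (nuclear against whole cell, wild type) and 0 to 20 (the same, IDR mutant). The COX5A to COX5B difference between fractions was -0.5638 with all nuclear libraries kept (exact permutation p = 0.06). The CYC1 to CYC7 difference between fractions passed without starved interface mutant replicate 1 (-0.5563, also the value without the libraries that stand apart) and without nuclear wild type replicate 1, and ran from -0.5573 to -0.3739 as each library was left out.

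Replicate numbers were shared across groups, but with 2 pairs the numbers share no stated source, and correlations of same-numbered deviations ran from -0.428 to 0.344. With a replicate block the counts were 23, 27 and 20 for starvation in the IDR mutant, the interface mutant and the wild type, and 21, 23 and 20 for nuclear against whole cell in the same strains; the starvation shift of COX5A to COX5B was -0.9574 under the block and kept its call. The numbers crossed gave 26 for starvation in the interface mutant and 0 and 0 for the interface mutant against the wild type, unstressed and starved. Of 7807 changes of single genes recomputed, 7153 kept direction and side of the threshold, 402 gained a call, 233 lost one and 19 turned round.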
